A study of Sus scrofa with 15 samples.

Results

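The 6 genes described here are *BTG1*, *BTG2*, *BTG3*, *TOB1*, *TOB2* and *TSC22D3*, genes known for holding lymphocytes in a resting state, and they were taken by symbol from the 29886 genes of the deposited count table. All 6 passed the filter on low counts that left 10939 genes to test. RNA was sequenced from 3 NK cell populations of the same 5 pigs, 6 months old and without any treatment named in the labels, which gave 15 libraries. Blood CD8αhigh NK cells (labelled Blood NK) came from the jugular vein, while liver CD8αhigh NK cells (labelled Conventional liver NK) and liver CD8αdim NK cells (labelled Liver resident NK, here lrNK cells) came from fluid flushed through the portal vein after perfusion. All 3 populations were sorted as CD3- CD172a- cells and differ in tissue and CD8α level, and the labels give PBMC as the source of all 15, the liver libraries included. The cells are bulk sorts, so fewer cells with a transcript and less of it per cell cannot be told apart.

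BTG and TOB proteins share an N-terminal domain that binds CNOT7 and CNOT8, the CAF1-type deadenylases of the CCR4-NOT complex, and so bring poly(A) tail shortening to mRNAs. The TOB proteins also contact the cytoplasmic poly(A)-binding protein. In T cells *BTG1*, *BTG2* and *TOB1* are known to restrain activation and entry into the cell cycle. *TSC22D3* is no relative of these genes: it encodes GILZ, a leucine zipper protein that is induced by glucocorticoids and dampens NF-κB and AP-1 activity.

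Levels are given as CPM, which scales reads to a common library size after edgeR's TMM adjustment, and differences as log2FC, the log2 of the fold change. The libraries were read from the 3′ end of transcripts, so a count does not grow with transcript length. Library totals ran from 2003499 to 5680221 counts. The NK cell markers of a fixed list summed to between 6688 and 14462 CPM in every library. *CD4*, *CD5*, *CD28*, *CSF1R*, *CD163* and *MARCO* were at 0 in all 15, as were 11717 of the 29886 genes. Such a gene may not be captured by these libraries, so its 0 cannot show whether a cell type was present. *CD79A* was also at 0 where another B cell marker, *MS4A1*, had a mean of 267 CPM in lrNK cells. The 6 B cell markers summed to 436 to 1008 CPM in lrNK libraries, against 21.2 to 163 CPM in blood and 4.06 to 53.9 CPM in liver CD8αhigh libraries, with *CD79A* at 0 throughout, and T cell markers to 109.9 to 593 CPM against 637 to 1200 and 714 to 1076 CPM. *CD3G* made up most of the T cell sum, with means of 865 CPM in blood, 825 CPM in liver CD8αhigh and 289 CPM in lrNK cells, whereas *CD3D* had 3.78, 7.38 and 8.43 CPM in this order. Myeloid markers summed to at most 25.6 CPM, endothelial markers to at most 18.5 CPM and hepatocyte markers to at most 8.14 CPM in any library. Erythroid and platelet markers, 4 of 6 listed being present among the counts, summed to 387 CPM in blood of pig 4, with *HBB* at 302 CPM. The sum was 69.1 to 178 CPM in the other libraries, most of it from 1 gene, *GP9*. Means of *GP9* were 90.5, 96.4 and 118 CPM in blood, liver CD8αhigh and lrNK cells. The platelet gene *PPBP* had means of 0.416, 0 and 0.470 CPM in this order. The part of B or T cells in any difference of lrNK cells given here was not tested. The quasi-likelihood test of edgeR was run over all 10939 genes with Benjamini-Hochberg adjustment. In that test 18.2% of all genes were called between lrNK and blood cells (8.62% higher and 9.6% lower), 14.6% between lrNK and liver CD8αhigh cells (6.96% higher and 7.68% lower) and 0.064% between liver CD8αhigh and blood cells (0.0457% higher and 0.0183% lower).

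*TSC22D3* fell steeply in lrNK cells, and among the 6 genes it was the one called against blood. Its level in blood CD8αhigh NK cells was 464, 773, 614, 638 and 513 CPM in pigs 1 to 5. Liver CD8αhigh NK cells of the same pigs had 397, 1096, 634, 578 and 856 CPM. In lrNK cells the levels were 54.4, 189, 16.6, 59.0 and 62.2 CPM, so that each lrNK library lay below each library of the other populations. Pig 2 had the highest level in all 3 populations. The lowest lrNK level, that of pig 3, rested on 34 reads. This library also stood apart from the other lrNK libraries over genes in general. Chi-square per degree of freedom was 30.1 to 46.7 in its pairs, against 12.2 to 26.8 between the other lrNK libraries. Its summed NK cell markers, 6688 CPM, were the lowest of all libraries.

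The mean of *TSC22D3* was 601 ± 120 CPM (SD, n = 5) in blood, 712 ± 270 CPM in liver CD8αhigh and 76.2 ± 65.7 CPM in lrNK cells. The lrNK level was 7.91-fold lower than that of blood (log2FC -2.98, standard error 0.41, adjusted p = 1.89e-05, edgeR). Against liver CD8αhigh NK cells it was 9.38-fold lower (log2FC -3.23, standard error 0.42, adjusted p = 1.03e-05, edgeR). Within single pigs the lrNK level was between 4.09-fold and 37.1-fold lower than in blood, with the smallest difference in pig 2 and the largest in pig 3. Over all alternative settings the log2FC against blood stayed between -3.52 and -2.72, and 17 of 17 settings kept the call. The levels of both CD8αhigh populations differed by less than their spread (log2FC 0.25, 95% interval -0.54 to 1.03, adjusted p = 1, edgeR). The order was therefore lrNK cells lowest, with the other populations not separated. Over all genes, 13.5% had ranges in lrNK and blood cells that did not overlap (6.18% higher and 7.33% lower), and 11.9% in lrNK and liver CD8αhigh cells (5.18% higher and 6.67% lower).

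**Figure D1:**
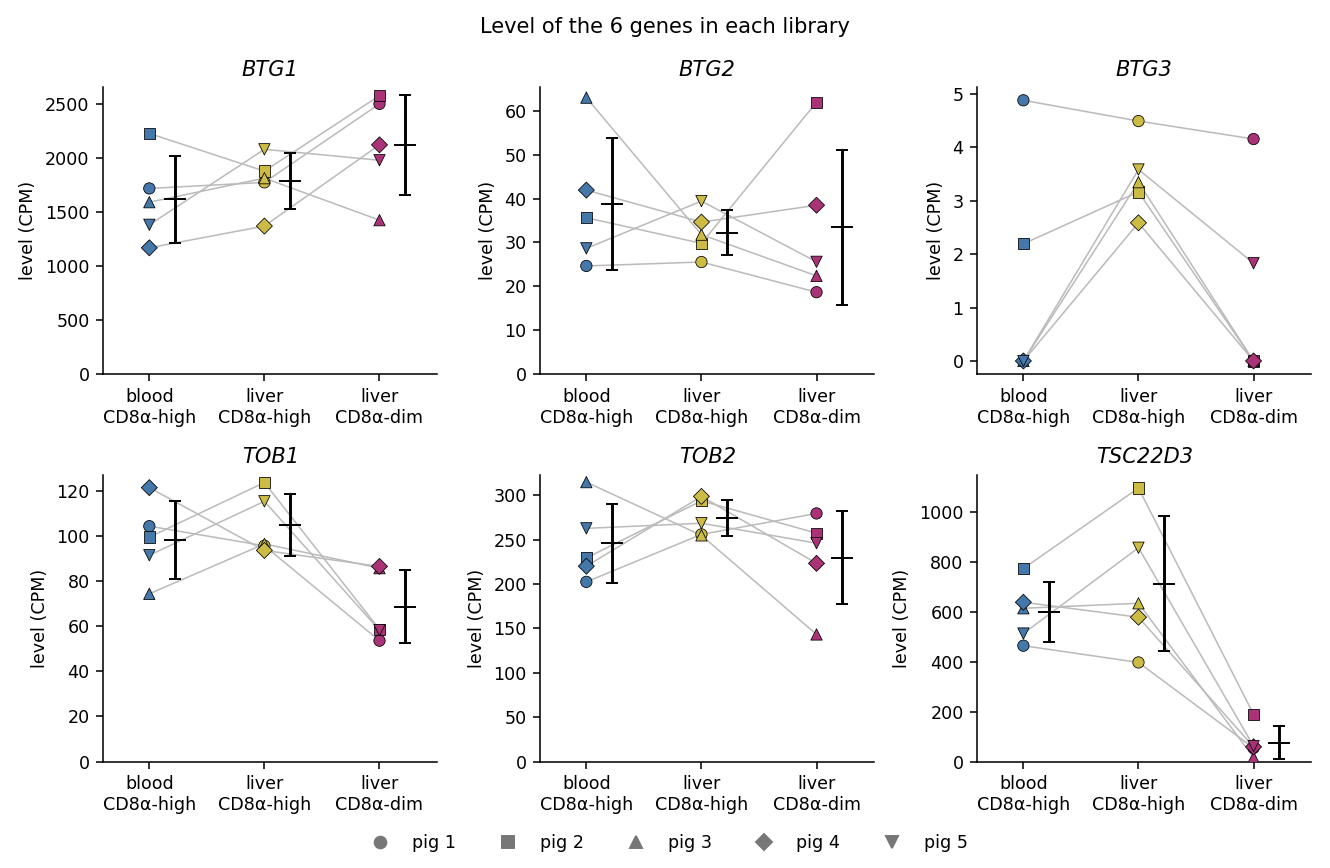
Level of each of the 6 genes in CPM (vertical axes, linear) in blood CD8αhigh, liver CD8αhigh and liver CD8αdim (lrNK) NK cells. Each point is a library, its shape names the pig, grey lines join the libraries of a pig and black bars are mean ± SD over 5 pigs (none is drawn for *BTG3*, which has libraries at 0). *TSC22D3* is at most 189 CPM in lrNK cells and at least 397 CPM elsewhere, while *BTG1*, *BTG2* and *TOB2* overlap between all 3 populations.

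*TSC22D3* lies on chromosome X from 88171325 to 88233583 of Sscrofa11.1, and no other annotated gene overlaps it. *TSC22D1* and *TSC22D2*, which belong to the same leucine zipper family, were also lower in lrNK cells. *TSC22D1* had 44.0 ± 9.26 CPM (SD, n = 5) in blood, 40.5 ± 7.01 CPM in liver CD8αhigh and 15.3 ± 3.62 CPM in lrNK cells. Its log2FC was -1.52 against blood (standard error 0.25, adjusted p = 1.28e-04, edgeR) and -1.40 against liver CD8αhigh cells (adjusted p = 3.47e-04, edgeR). For *TSC22D2* the log2FC against blood was -0.60 (adjusted p = 0.0116, edgeR), and against liver CD8αhigh cells it was -0.48 (adjusted p = 0.0511, edgeR), past the threshold only in the first comparison. All family members that were tested thus had negative fold changes in both comparisons of lrNK cells, the largest being that of *TSC22D3*. Among the other listed genes of these families, *BTG4*, an oocyte gene, was at 0 in every library. *TSC22D4* was not found by symbol among the deposited counts, so it could not be tested.

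*BTG1* was by far the most abundant of the 6 genes and was high in every library. Its level was 1719, 2228, 1592, 1170 and 1383 CPM in blood of pigs 1 to 5. Liver CD8αhigh NK cells had 1775, 1879, 1814, 1371 and 2081 CPM, and lrNK cells 2501, 2578, 1426, 2122 and 1980 CPM. The populations overlapped, although 4 of 5 pigs had more *BTG1* in lrNK cells than in blood. The exception was pig 3. The means were 1618 ± 400 (SD, n = 5), 1784 ± 259 and 2121 ± 463 CPM in this order of populations, and none of the differences passed the test. Between lrNK and blood cells the log2FC was 0.39, with a 95% interval of 0.01 to 0.77 and an adjusted p of 0.157 (edgeR). Without the lrNK library of pig 3 it was 0.52, with an adjusted p of 0.03, and without all libraries of pig 3 it was 0.50, with an adjusted p of 0.0829 (edgeR). The first of these was the 1 call of *BTG1* in 19 alternatives. Against liver CD8αhigh cells the log2FC was 0.25 (95% interval -0.13 to 0.63, adjusted p = 0.444, edgeR).

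*BTG1* covers positions 90815194 to 90817936 of chromosome 5 and lies wholly inside *LOC106510428*, a long non-coding RNA gene annotated from 90702808 to 90855944. All 2743 bases of *BTG1* lie between the start and end of that gene, and exons were not compared. The annotation used gives no strand, and the strand setting of the counting is not given in the sources used here. Whether reads of *BTG1* could be counted for either gene is therefore not known. The counts of these genes nevertheless differed greatly in size and in pattern. In blood libraries of pigs 1 to 5, *LOC106510428* had 103, 100, 101, 266 and 100 reads, while *BTG1* had 6344, 8127, 5867, 3238 and 4053. Liver CD8αhigh libraries had 13, 10, 23, 6 and 14 reads of the lncRNA gene, and lrNK libraries 15, 1, 11, 7 and 34. Every blood library was above every liver library.

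As a share of the *BTG1* reads, *LOC106510428* reached 1.23% to 8.21% in blood, 0.0754% to 0.353% in liver CD8αhigh and 0.0186% to 0.449% in lrNK cells. The share in each blood library was above that in each liver library, and the liver populations overlapped, a description with no test. Adding the lncRNA reads to *BTG1* or leaving them out of the table changed no *BTG1* call. With so few lncRNA reads that outcome was largely fixed in advance. Reads given to another gene or dropped before counting were not tested.

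The level of *LOC106510428* was 42.6 ± 30.1 CPM (SD, n = 5) in blood, 3.58 ± 2.02 CPM in liver CD8αhigh and 4.58 ± 3.37 CPM in lrNK cells. It fell 12.0-fold in liver CD8αhigh cells against blood (log2FC -3.59, standard error 0.58, adjusted p = 0.0103, edgeR), where 2 genes in all were called lower, 0.0183% of those tested. In lrNK cells it was 9.05-fold lower than in blood (log2FC -3.18, standard error 0.58, adjusted p = 3.94e-04, edgeR). The first of these calls was lost on leaving out pig 1, 2, 4 or 5, with adjusted p-values of 0.0724, 0.0682, 0.176 and 0.0717 and log2FC values of -3.79, -3.62, -2.78 and -3.62 (edgeR). All 17 alternatives kept the call of lrNK cells against blood, where leaving out pig 4 gave a log2FC of -2.44 (adjusted p = 0.00548, edgeR). The part of the erythroid RNA of that pig's blood library in these values was not tested.

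**Figure D2:**
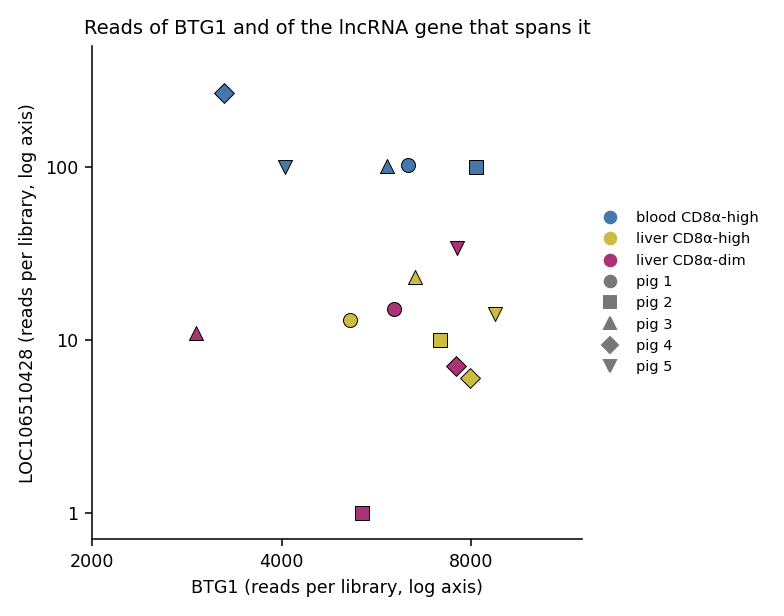
Reads of *BTG1* (horizontal, log axis) and of *LOC106510428*, the lncRNA gene that spans it (vertical, log axis), in each of 15 libraries. Colour gives the population and shape the pig. Blood libraries sit at 100 to 266 reads of the lncRNA gene and liver libraries at 1 to 34, over overlapping ranges of *BTG1*.

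*BTG2*, an immediate early gene and p53 target in many cells, had far lower levels than *BTG1* and passed the test in no comparison. Blood libraries had 24.7, 35.6, 63.0, 41.9 and 28.7 CPM in pigs 1 to 5. Liver CD8αhigh libraries lay between 25.6 and 39.4 CPM and lrNK libraries between 18.7 and 61.9 CPM, so the ranges overlapped. The spread was widest in lrNK cells, where pig 2 stood at 61.9 CPM and the median was 25.6 CPM. The log2FC was -0.22 for lrNK cells against blood (95% interval -0.87 to 0.44), 0.05 against liver CD8αhigh cells (-0.61 to 0.70) and -0.26 for liver CD8αhigh cells against blood (-0.92 to 0.39). The adjusted p-values of *BTG2* were 0.709, 0.957 and 1 in this order (edgeR).

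*BTG3*, a further antiproliferative member of the family, was barely measured. Blood libraries of pigs 1 to 5 had 18, 8, 0, 0 and 0 reads, and lrNK libraries 10, 0, 0, 0 and 7. All 5 liver CD8αhigh libraries held reads of *BTG3*, between 12 and 15 each. The difference between liver CD8αhigh and lrNK cells was nevertheless within error (log2FC -1.47, 95% interval -4.03 to 1.08, adjusted p = 0.517, edgeR). The other comparisons of *BTG3* did not pass either, with 95% intervals of -2.83 to 2.33 for lrNK cells against blood and -1.26 to 3.71 for liver CD8αhigh cells against blood.

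*TOB1*, one of the TOB proteins and a known brake on T cell activation, was lower in lrNK cells than in liver CD8αhigh cells. Its level was 104, 99.5, 74.4, 121 and 91.4 CPM in blood of pigs 1 to 5. In liver CD8αhigh NK cells it was 95.7, 124, 96.5, 93.6 and 115 CPM. In lrNK cells it was 53.6, 58.6, 85.7, 86.5 and 58.2 CPM, below every liver CD8αhigh library but overlapping blood through pigs 3 and 4. The means were 98.2 ± 17.3 (SD, n = 5), 104.9 ± 13.7 and 68.5 ± 16.2 CPM.

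Against liver CD8αhigh cells *TOB1* fell 1.53-fold in lrNK cells, in all 5 pigs (log2FC -0.61, standard error 0.19, adjusted p = 0.0304, edgeR). This call was lost on leaving out pig 1, 2 or 5 (adjusted p = 0.0945, 0.188 and 0.172, edgeR) and with only both liver populations in the fit (adjusted p = 0.0521, edgeR). Against blood the log2FC was -0.52 with an adjusted p of 0.0613 (95% interval -0.91 to -0.13, edgeR), lower in 4 of 5 pigs. Leaving out all libraries of pig 3 gave -0.69 (adjusted p = 0.0175, edgeR), and leaving out its lrNK library alone gave -0.59 (adjusted p = 0.0266, edgeR). Liver CD8αhigh and blood cells were not separated (log2FC 0.10, 95% interval -0.29 to 0.48, adjusted p = 1, edgeR). *TOB1* lies on chromosome 12 from 27116579 to 27119906.

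*TOB2*, the closest relative of *TOB1*, was the steadiest of the 6 genes, with an SD of log2 CPM of 0.277 over all libraries. It had 202 to 315 CPM in blood, 255 to 299 CPM in liver CD8αhigh and 143 to 279.5 CPM in lrNK cells, all overlapping, and the lowest library was that of pig 3 in lrNK cells. The log2FC was -0.10 for lrNK cells against blood (95% interval -0.45 to 0.26, adjusted p = 0.765) and -0.25 against liver CD8αhigh cells (-0.61 to 0.10, adjusted p = 0.396, edgeR). By gene start and end, *TOB2* lies wholly inside *LOC110260629*, a lncRNA gene with 82 reads over all 15 libraries, where *TOB2* had 294 to 1733 reads in each. Exons were not compared here either.

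**Figure D3:**
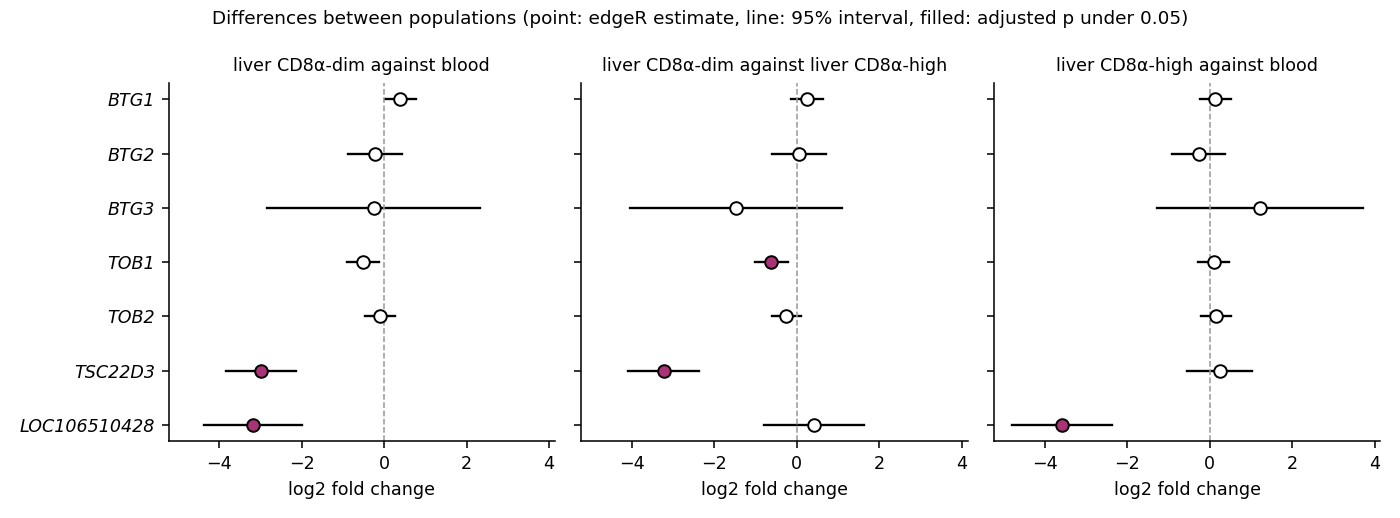
Log2FC (horizontal axes) of the 6 genes and of *LOC106510428* in each comparison of populations. Points are edgeR estimates over 5 pigs a group, lines are 95% intervals and filled points have an adjusted p under 0.05. *TSC22D3* stands near -3 in both comparisons of lrNK cells, *TOB1* is called against liver CD8αhigh cells, and the lncRNA gene is called in both comparisons with blood.

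Between lrNK and blood cells 1 of the 6 genes was thus called, and between lrNK and liver CD8αhigh cells 2 of 6, all lower. Lower calls made up 9.6% and 7.68% of all genes in these comparisons, which share the lrNK libraries. Against blood 3 of the 6 (*BTG1*, *TOB1* and *TSC22D3*) had an unadjusted p under 0.05 in edgeR, as had 3223 of all 10939 genes. Against liver CD8αhigh cells it was 2 of the 6 and 2722 of all genes. Between liver CD8αhigh and blood cells 0 of the 6 passed, 0 had an unadjusted p under 0.05 in edgeR, and DESeq2 called 0 as well. Over all 10939 genes edgeR called 7 there, which is 0.064%, 549 had an unadjusted p under 0.05, and DESeq2 called 24 of the 10329 genes it gave an adjusted p. None of the 6 had ranges that did not overlap in that comparison, whereas 2.01% of all genes did (1.11% higher and 0.905% lower). The median log2FC of the 6 genes was -0.23 in lrNK cells against blood and -0.43 against liver CD8αhigh cells, with 0.01 and 0.02 over all genes tested. Blocking by pig left these counts at 1, 2 and 0.

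The 5 BTG and TOB genes together had 2003 ± 391 CPM (SD, n = 5) in blood, 2199 ± 261 CPM in liver CD8αhigh and 2454 ± 509 CPM in lrNK cells. *BTG1* alone supplied 75.3% to 87.5% of their reads, *TOB2* 8.54% to 16.6%, *TOB1* 1.88% to 7.82% and *BTG2* 0.654% to 3.08%. In lrNK libraries the *BTG1* share was 85.0% to 87.5%, above the 76.1% to 83.0% of liver CD8αhigh libraries and overlapping the 75.3% to 85.9% of blood.

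Of 16 tested genes of the CCR4-NOT complex, which BTG and TOB proteins recruit, and its partners, lrNK cells had 1 above blood and 1 below it, where 18.2% of all genes were called. The median log2FC of the 16 was 0.10, beside 0.01 over all genes tested. *CNOT7*, a deadenylase bound by the BTG domain, had 160 ± 13.3 CPM (SD, n = 5) in blood cells, 162 ± 12.0 CPM in liver CD8αhigh and 173 ± 46.7 CPM in lrNK cells (lrNK against blood, log2FC 0.12, adjusted p = 0.715, edgeR). Its paralog *CNOT8* rose from 49.5 ± 20.4 to 90.5 ± 25.2 CPM (log2FC 0.87, adjusted p = 0.0336, edgeR), and in liver CD8αhigh cells it had 95.1 ± 4.44 CPM (log2FC 0.94 against blood, adjusted p = 0.544, edgeR). *CNOT6*, a CCR4-type deadenylase, fell from a mean of 57.6 CPM to one of 34.2 CPM, with 20.5 to 48.2 CPM in lrNK libraries (log2FC -0.75, adjusted p = 0.0427, edgeR), and with a block for pig the log2FC was -0.77 (adjusted p = 0.0524). Against liver CD8αhigh cells 2 of the 16 fell in lrNK cells and 0 rose (14.6% of all genes were called there), namely *CNOT6* (log2FC -0.88, adjusted p = 0.0212) and the poly(A)-binding protein gene *PABPC1* (log2FC -0.67, adjusted p = 0.026, edgeR).

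*NR3C1*, the gene of the glucocorticoid receptor, passed the test in none of the comparisons (edgeR). It had 293 ± 34.7 CPM (SD, n = 5) in blood, 311 ± 39.0 CPM in liver CD8αhigh and 284 ± 50.4 CPM in lrNK cells. Its log2FC in lrNK cells was -0.04 against blood (95% interval -0.36 to 0.27, adjusted p = 0.897) and -0.13 against liver CD8αhigh cells (-0.45 to 0.19, adjusted p = 0.676, edgeR). Of the 10 tested genes of the list of this receptor and glucocorticoid-induced genes, 2 fell and 1 rose in lrNK cells against blood, where 9.6% of all genes fell and 8.62% rose.

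The falls were those of the kinase gene *SGK1* (log2FC -3.15, adjusted p = 1.28e-04) and of the mTORC1 inhibitor *DDIT4* (log2FC -1.26, adjusted p = 0.0187, edgeR). *SGK1* was spread widely in blood, from 19.0 to 150 CPM, and had 4.57 to 9.40 CPM in lrNK cells. The transcription factor gene *ZBTB16* rose, from 96.0 ± 14.2 to 183 ± 45.1 CPM (log2FC 0.93, adjusted p = 0.00197, edgeR). Against liver CD8αhigh cells the immunophilin gene *FKBP5* (log2FC -0.89, adjusted p = 0.0315) and the clock gene *PER1* (-0.82, adjusted p = 0.0482) fell and *ZBTB16* rose (0.65, adjusted p = 0.0293, edgeR). Against blood *PER1* had a log2FC of -0.76 (adjusted p = 0.061), and of -0.73 with a block for pig (adjusted p = 0.0343, edgeR). The median of the list was -0.47 against blood and -0.10 against liver CD8αhigh cells.

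Of 13 tested genes among others that hold lymphocytes at rest, 3 fell and 2 rose in lrNK cells against blood, and the same counts were found against liver CD8αhigh cells. Over all genes 18.2% were called in the first comparison and 14.6% in the second. *KLF2*, a transcription factor of resting and circulating lymphocytes, had 736 ± 341 CPM (SD, n = 5) in blood, 631 ± 161 CPM in liver CD8αhigh and 84.8 ± 75.9 CPM in lrNK cells (log2FC against blood -3.12, adjusted p = 4.93e-04, edgeR). *CDKN1B*, the gene of the cyclin-dependent kinase inhibitor p27, fell from 178 ± 33.8 to 68.6 ± 34.2 CPM (log2FC -1.37, adjusted p = 0.00246, edgeR). The forkhead gene *FOXO3* fell from 276 ± 24.9 to 167 ± 40.9 CPM (log2FC -0.72, adjusted p = 0.00365, edgeR).

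*FOXO1* rose from 143 ± 24.0 to 230 ± 76.0 CPM (log2FC 0.69, adjusted p = 0.0208, edgeR). *RBL1*, a relative of the retinoblastoma gene, rose from 26.2 ± 3.81 to 78.7 ± 33.7 CPM (log2FC 1.59, adjusted p = 2.32e-04, edgeR). Against liver CD8αhigh cells the fall of *KLF2*, *CDKN1B* and *FOXO3* (log2FC values -2.90, -1.23 and -0.92, adjusted p = 0.00107, 0.00688 and 4.83e-04) and the rise of *FOXO1* (0.68, adjusted p = 0.0258, edgeR) were called too. *RBL1* was called there with a log2FC of 0.80 (adjusted p = 0.0472), and with a block for pig the log2FC was 0.72 (adjusted p = 0.0819, edgeR).

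Of 21 tested cell cycle genes, 3 rose and 2 fell in lrNK cells against blood, where 8.62% of all genes rose and 9.6% fell. Their median log2FC was 0.47, with 14 of the 21 above 0, beside a median of 0.01 over all genes. In the fit blocked by pig, 4 of them rose, the added one being the topoisomerase gene *TOP2A* (log2FC 1.84, adjusted p = 0.0241, against 1.68 and 0.0976 without it, edgeR). The proliferation marker *MKI67* had 24.2 to 103 CPM in blood, 3.43 to 28.3 CPM in liver CD8αhigh and 3.36 to 13.6 CPM in lrNK cells (lrNK against blood, log2FC -2.56, adjusted p = 0.00109, edgeR). Liver CD8αhigh cells were also lower than blood in all 5 pigs, with a log2FC of -1.67 that did not pass (adjusted p = 0.544, edgeR). The D-type cyclin gene *CCND3* fell in lrNK cells (log2FC -0.60, adjusted p = 0.0294, edgeR). Rises were found for *CDK6*, a kinase partner of D-type cyclins (1.11, adjusted p = 0.00934), the thymidylate synthase gene *TYMS* (1.21, adjusted p = 0.00938) and the ribonucleotide reductase gene *RRM2* (2.82-fold, adjusted p = 0.05, just under the threshold before rounding, edgeR). In lrNK against liver CD8αhigh cells 1 rose, *TYMS* (1.05, adjusted p = 0.0267), and 1 fell, *CCND3* (-0.65, adjusted p = 0.0215, edgeR), where 6.96% of all genes rose and 7.68% fell.

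Of 12 tested immediate early genes, among which *BTG2* is often counted, 4 rose and 3 fell in lrNK cells against blood, where 8.62% of all genes rose and 9.6% fell. *EGR3* rose most, from 3.26 ± 3.16 to 63.8 ± 27.8 CPM (SD, n = 5, log2FC 4.33, adjusted p = 1.63e-05, edgeR), followed by *EGR1* (3.44, adjusted p = 0.00382) and *NR4A2* (1.97, adjusted p = 2.50e-04, edgeR). *NR4A3* fell from 150 ± 64.0 to 4.14 ± 3.80 CPM (log2FC -5.27, adjusted p = 2.03e-07, edgeR), with smaller falls of *IER3* (-3.05, adjusted p = 0.0137) and *JUNB* (-1.04, adjusted p = 0.00161, edgeR). In the comparison with liver CD8αhigh cells *NR4A3* (-5.83, adjusted p = 6.82e-08), *JUNB* (-0.84, adjusted p = 0.00985) and *IER2* (-0.74, adjusted p = 0.0207, edgeR) fell and 0 of the 12 rose, where 7.68% of all genes fell and 6.96% rose. In liver CD8αhigh cells against blood, where *BTG2* had a log2FC of -0.26, *EGR3* (3.54) and *NR4A2* (2.13) rose, each with an adjusted p of 0.0103 (edgeR). The *EGR3* call was lost on leaving out pig 1, 2 or 4 (log2FC 3.11, 3.33 and 3.55, adjusted p = 0.222, 0.0682 and 0.165, edgeR). The *NR4A2* call was lost on leaving out pig 1, 2 or 5 (log2FC 2.07, 2.19 and 1.99, adjusted p = 0.104, 0.0682 and 0.0717, edgeR). *EGR3* and *NR4A2* were the only calls of the 6 gene lists in that comparison, in which 5 genes rose in all.

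Leaving out each pig, or 1 of 2 liver libraries, gave 7 further fits of the calls in these lists. Of 24 calls in lrNK cells against blood, 14 held in all 7 fits, those of *TSC22D1*, *ZBTB16*, *SGK1*, *KLF2*, *FOXO3*, *CDKN1B*, *RBL1*, *MKI67*, *CDK6*, *JUNB*, *EGR1*, *EGR3*, *NR4A2* and *NR4A3*. The size of some differences moved, with log2FC values of -3.55 to -2.38 for *SGK1* and 3.08 to 4.25 for *EGR1*. *IER3*, whose call was lost without pig 4 or 5, ran from -3.99 to -2.45. Of 16 calls against liver CD8αhigh cells, 5 held in all 7, those of *TSC22D1*, *KLF2*, *FOXO3*, *CDKN1B* and *NR4A3*. *RRM2* against blood and *PER1* against liver CD8αhigh cells passed in none of the 7 (adjusted p 0.0502 to 0.197 and 0.0523 to 0.163, edgeR). Their log2FC values in these fits were 1.13 to 1.83 and -0.91 to -0.72.

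**Figure D4:**
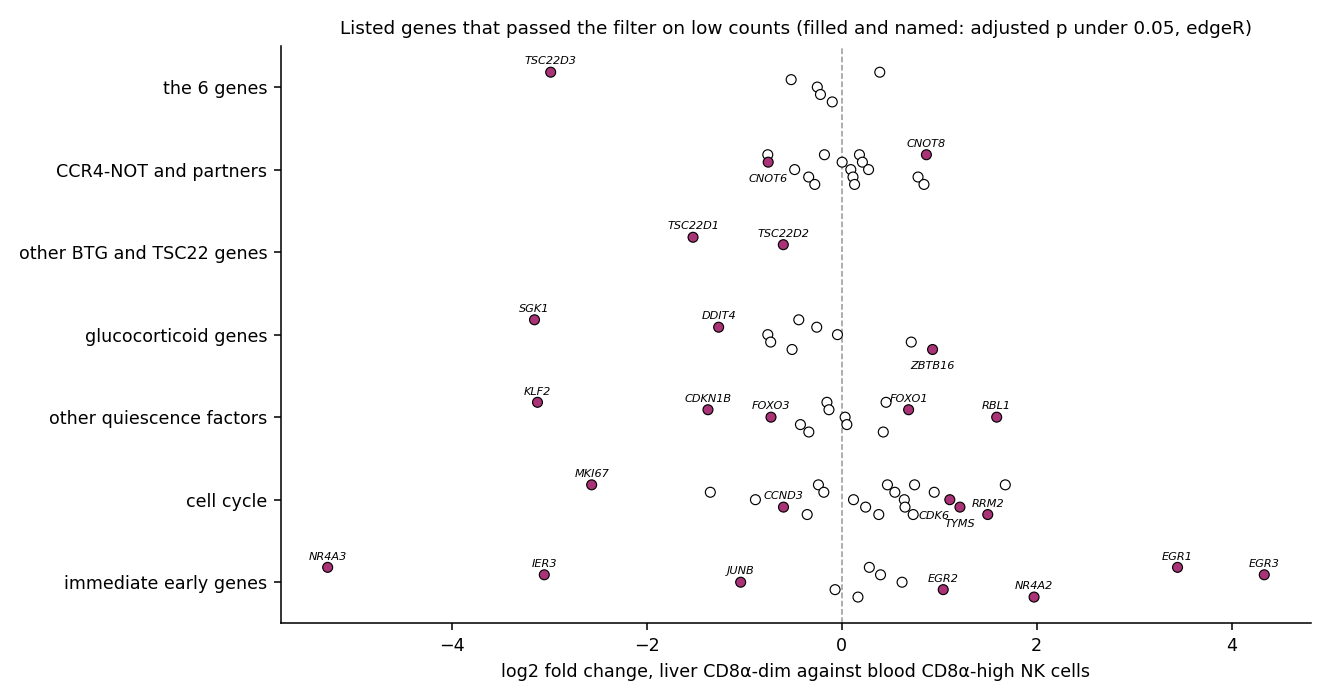
Log2FC in lrNK cells against blood CD8αhigh NK cells (horizontal axis) of the 6 genes and of the listed genes that passed the filter on low counts, in rows by list. Filled and named points have an adjusted p under 0.05 (edgeR). *TSC22D3* is the one filled point among the 6 genes, the other members of its family are both on the left, and the remaining lists spread to both sides of 0.

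The genes nearest to each of the 6 in their pattern over all 15 libraries were found by the root mean square distance of log2 CPM, centred for each gene, among 6333 genes (6334 for *BTG3*) with a mean of at least 20 CPM. Nearest to *TSC22D3* were *LOC102165849*, *C8H4orf32* and *KLHL4*, at distances of 0.562, 0.587 and 0.589 where *TSC22D3* itself varied with an SD of 1.83. Their log2FC values in lrNK cells against blood were -3.16, -3.24 and -3.04. Values near that of *TSC22D3* follow from picking these genes by their distance to it over the same libraries. Nearest to *TOB1* were *SDF4*, the adhesion receptor gene *CD44* and the actin regulator *CORO1A* (0.189, 0.191 and 0.196, SD of *TOB1* 0.377).

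For *BTG1* the nearest were *GMPR2*, *RAD50* and *DIMT1* (0.189, 0.195 and 0.203, SD of *BTG1* 0.332), and for *BTG2* they were *LOC102165905*, *PHF2* and *SNX2* (0.250, 0.304 and 0.316, SD of *BTG2* 0.487). *TOB2* was nearest to *RAB2A*, to *CNOT6L*, a CCR4-type deadenylase of the fixed list, and to *GPBP1* (0.151, 0.154 and 0.157, SD of *TOB2* 0.277). *BTG3* had no near gene, the closest being *ZFYVE16*, *HSD17B7* and *CDKN2B* at 1.03, 1.04 and 1.06 (SD of *BTG3* 1.40). The distances are descriptions over libraries that share pigs, and genes with little change are near to many others.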

How the data were processed

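RNA of 3 sorted NK cell populations from 5 pigs was made into QuantSeq 3′ mRNA libraries. The authors trimmed reads with QuasR, aligned them with Rhisat2 (HISAT2) to Sscrofa11.1 and deposited whole-number counts per gene and library, not normalized. How reads were counted, on which strand and with what treatment of multiple alignments is not given in the sources used here. All 15 columns were matched to samples by their description, 0 were left over, and 0 rows named no gene.

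The edgeR package (4.0.16, in R 4.3.3) was applied to these counts (TMM, default filter by population, quasi-likelihood test, all 15 libraries in 1 fit, Benjamini-Hochberg over 10939 genes, threshold 0.05). Standard errors were taken as log2FC over the root of F, and 95% intervals use the t distribution. CPM used for distances were log2 values with a prior count of 2. Chi-square per degree of freedom between libraries of a population was 9.41 to 46.7 over 30 pairs. The highest values, 30.1, 31.4, 35.9 and 46.7, were those of pairs with the lrNK library of pig 3, and the next was 26.8. The labels name the donor of each library, and deviations of libraries of one pig correlated at 0.107 on average, against -0.0265 between pigs, so fits were repeated with the pig as a block. DESeq2 1.42.0, other scalings and filters, robust dispersion, fits of 2 populations and leaving out pigs or libraries were alternatives. The edgeR fit was also run on simulated data, with an outcome that is not given here. Members and gene lists were chosen with earlier results of these data known. Named are the 6 genes, *LOC106510428*, in each list the called genes with the 3 largest rises and falls, *KLF2*, *NR3C1*, *CNOT7*, *CNOT8* and *MKI67*, and the 3 nearest genes of each of the 6. Other members of the 2 families and marker genes are named too, and *CD4*, *CD79A* and the like only in the check of the sort. Positions are those of a RefSeq table of Sscrofa11.1, which matched 29862 of 29886 symbols. Plots used matplotlib 3.10.9 under Python 3.11.15.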

Additional observations from a re-analysis of the deposited data

Results flagged for a closer look

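Among 21 groups of 5 libraries (the 6 genes and *LOC106510428* in 3 populations), 2 held a library set apart from the other 4 by more than Dixon's critical gap, which chance gives in about 1 of 20 groups. *TSC22D3* in lrNK cells was 189 CPM in pig 2 and 16.6 to 62.2 CPM in the other 4 pigs, and without pig 2 its log2FC was -3.52 against blood (adjusted p = 1.51e-06) and -3.67 against liver CD8αhigh cells (adjusted p = 1.10e-06, edgeR). *LOC106510428* in blood was 96.1 CPM in pig 4 and 27.4 to 34.1 CPM in the other 4 pigs, and pig 4 also had the lowest *BTG1* level of the blood libraries, 1170 CPM, and the highest summed erythroid and platelet markers, 387 CPM against 69.1 to 109.9 CPM. Their part in the *LOC106510428* level was not tested.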

How the results depend on the processing

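The calls of *TSC22D3* in both comparisons of lrNK cells kept their direction and side of the threshold in all 17 alternatives. With the pig as a replicate block, *BTG2* turned to -0.032 in lrNK against liver CD8αhigh cells and the block changed no other direction or call of the 6 genes or of *LOC106510428*. In the fit of only the populations compared, *TOB1* had -0.62 (adjusted p = 0.0521, edgeR) in lrNK against liver CD8αhigh cells and 1 of the 6 genes was lower. An adjusted p under 0.01 dropped *TOB1* there (-0.61), which left *TSC22D3* as 1 lower gene, and dropped *LOC106510428* in liver CD8αhigh cells against blood (-3.59), and one under 0.10 gave 2 lower genes in lrNK against blood (*TOB1* at -0.52).

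On leaving out pigs or libraries, log2FC values in lrNK against blood cells ran from 0.29 to 0.52 for *BTG1*, -0.58 to 0.14 for *BTG2*, -0.75 to 0.24 for *BTG3*, -0.69 to -0.41 for *TOB1* and -0.23 to 0.14 for *TOB2*, with 0 to 1 of the 6 genes higher and 1 to 2 lower. In lrNK against liver CD8αhigh cells they ran from -0.32 to 0.22 for *BTG2*, -0.75 to -0.50 for *TOB1* and -0.038 to 0.70 for *LOC106510428*, with 1 to 2 genes lower. *LOC106510428* ran from -4.04 to -2.78 in liver CD8αhigh against blood cells and from -3.66 to -2.44 in lrNK against blood cells. The cause of these changes was not tested.

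Over all genes, liver CD8αhigh against blood gave 5 higher and 2 lower calls, 18 and 6 with DESeq2, 12 and 6 without a filter, 12 and 4 with only both populations, 2 higher with robust dispersion, 0 and 0 at an adjusted p under 0.01, and 0 to 10 and 0 to 6 on leaving out pigs or libraries. At an adjusted p under 0.01 lrNK against blood gave 532 and 667 in place of 943 and 1050, and lrNK against liver CD8αhigh 402 and 545 in place of 761 and 840. Without pig 5 the latter gave 458 higher. Counts of listed genes moved by over 1.5 times in 90 of 612 cases, where these counts were 4 genes or fewer. The 21 mean levels moved by less than their SD without TMM. Of 6 sets of nearest genes, that of *BTG3* changed with genes down to 5 CPM. *BTG3* had at most 18 reads in any library.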
